A study of Homo sapiens with 18 samples.

Results

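The keratins are the genes described here, in arrays of a pair of human prostate cancer lines after siRNA against the transcription factors Stat3 or Stat5a/b. A gene was taken as a keratin when its symbol was KRT followed by a number and at most 1 letter, and each was read from its brightest probe set that carries no other gene's symbol. That gave 44 keratins among 19775 genes, 24 of type I and 20 of type II. A RefSeq gene table (GRCh38.p14) lists 55 protein-coding keratins. KRT6A, KRT6B, KRT6C, KRT17, KRT26, KRT28, KRT34, KRT39, KRT81, KRT82 and KRT86 were not analysed here, having no probe set under a symbol of their own in the annotation used.

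Keratins are the intermediate filament proteins of epithelial cells. A type I, acidic, chain pairs with a type II, basic to neutral, chain, and the filaments are tied to desmosomes and hemidesmosomes by linker proteins such as the plakins. Which pair a cell makes marks its kind: KRT8 with KRT18 in simple and glandular epithelia, KRT5 with KRT14 in basal cells, KRT4 with KRT13 in the upper layers of moist stratified epithelia, KRT1 with KRT10 in epidermis. In prostate, luminal secretory cells make KRT8 and KRT18 and basal cells make KRT5 and KRT14.

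DU145 is an established androgen-independent line from a brain metastasis of a prostate carcinoma, and CWR22Rv1 is an established line from a prostate carcinoma xenograft that expresses the androgen receptor. Each line received scramble siRNA as the control, siRNA against Stat3, or siRNA against Stat5a and Stat5b, with Lipofectamine, and was harvested after 48 h. Each of these 6 groups held 3 Affymetrix U133 Plus 2.0 arrays, 18 in all, whose RNA was not pooled. Nothing states that the 3 came from separate cultures, so the p-values speak of the spread among these samples, and that spread may be technical. Only 1 scramble control is described, so each siRNA is compared with the same control arrays of its line, and the siRNA comparisons of a line share them.

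Values are log2 expression, where a difference of 1 is a factor of 2. The targets checked the labels. STAT3 differed by -1.62 in DU145 and -1.13 in CWR22Rv1 with Stat3 siRNA, and STAT5B by -1.36 and -0.91 with Stat5a/b siRNA, all called. The starting level of STAT3 was not alike: between the scramble groups it differed by -3.62 (CWR22Rv1 minus DU145, called). STAT5A differed by -0.30 and -0.34 and was not called (adjusted p = 0.101 and 0.146). Within groups the median SD of a gene over 3 arrays was 0.112 to 0.126 in DU145 and 0.0724 to 0.0824 in CWR22Rv1. The gap between the 3' and 5' control probe sets of ACTB, a measure of RNA integrity, was 0.45 to 0.63 in DU145 arrays and 0.63 to 0.85 in CWR22Rv1 arrays, with overlapping ranges among the groups of a line. The epithelial markers EPCAM (means 11.15 and 11.68 in the scramble arrays of DU145 and CWR22Rv1) and CDH1 (10.10 and 11.83) were present in both lines. The luminal protease gene KLK2 read 10.14 in CWR22Rv1 and 3.54 in DU145, and VIM, the filament gene of mesenchymal cells, 13.05 in DU145 and 7.03 in CWR22Rv1. KLK3, the other luminal marker measured, differed by 0.065 between the scramble groups and was not called. Other mesenchymal markers did not follow VIM. Of the 6 listed, LUM, COL3A1, COL1A1 and DCN were called higher in CWR22Rv1 and VIM alone lower, with a median difference of 0.48. Of all genes 30.0% were called higher there and 27.0% lower.

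Few keratins were bright in these lines. KRT8, KRT10, KRT18 and KRT19 stayed at or above 6 on every array, KRT4, KRT7, KRT15 and KRT80 had arrays on both sides of 6, and the other 36 stayed below 6 on every array. Detection calls were not used, so how far a value lies above background is unknown, and values below 6 are best read as low. A keratin was called when the adjusted p of the limma fit, corrected over all 19775 genes within a comparison, was under 0.05. Over 9 comparisons 11 keratins were called at least once and 33 never were. Of the 11, 6 were called in a comparison of siRNA groups (KRT4, KRT10, KRT15, KRT18, KRT19 and KRT80). The shares of all genes called at least once were not counted, so these counts cannot be set against them. The comparison of the lines alone called 25.0% of the keratins and 56.9% of all genes.

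The lines themselves differed most in 3 keratins that DU145 carried and CWR22Rv1 had at a low level. In the scramble arrays KRT7, a type II keratin of simple and ductal epithelia, read 12.13, 12.17 and 12.15 in DU145 and 5.26, 5.29 and 4.78 in CWR22Rv1. KRT80, a widely expressed type II keratin that lies near desmosomes, read 9.29, 9.74 and 9.58 against 4.36, 4.08 and 4.18. KRT4, the type II keratin of moist stratified epithelia, read 7.75, 7.55 and 6.42 against 4.38, 4.13 and 4.24. The arrays of the lines did not overlap for any of these genes.

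Between the scramble groups, CWR22Rv1 was lower for KRT7 by a log2 difference of -7.04 ± 0.155 (SE, 3 arrays against 3, adjusted p = 4.7e-16). KRT80 differed by -5.33 ± 0.124 (adjusted p = 9.5e-16) and KRT4 by -2.99 ± 0.308 (adjusted p = 2.0e-07). On the linear scale CWR22Rv1 held 0.760% of the DU145 value for KRT7 and 2.49% for KRT80, ratios whose smaller member may lie at background. The keratins shared by both lines were lower in CWR22Rv1 by less, with differences of -1.63 for KRT10, -1.55 for KRT19, -0.90 for KRT8 and -0.43 for KRT18. All these values come from the brightest probe set of a gene. The dimmer sets of KRT7 gave only -0.40, -0.58 and -1.28, called lower with p-values adjusted over all probe sets. Those of KRT10 gave -1.87 and -1.47, also called. The dim second sets of KRT4 and KRT19 gave -0.11 and -0.20, not called. Of the 44 keratins 11 were called here, 2 higher and 9 lower in CWR22Rv1. Of all genes 56.9% were called, 30.0% higher and 27.0% lower. KRT222 (0.55) and KRT14 (0.30) were the 2 that were higher, both at 3.45 or less on every scramble array. A dimmer second probe set of KRT222 gave 0.14 and was not called. KRT15 (-0.75) and the hair keratin KRT83 (-0.28) completed the 9. The calls of KRT14 and KRT83 did not survive leaving out single arrays. Without DU145 scramble replicate 1 the differences were 0.23 (adjusted p = 0.123) and -0.12 (adjusted p = 0.273). Other arrays took the adjusted p of KRT14 to between 0.0587 and 0.119 (DU145 replicate 3, CWR22Rv1 replicates 2 and 3) and that of KRT83 to between 0.0585 and 0.124 (DU145 replicate 2, CWR22Rv1 replicates 1, 2 and 3).

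**Figure D1:**
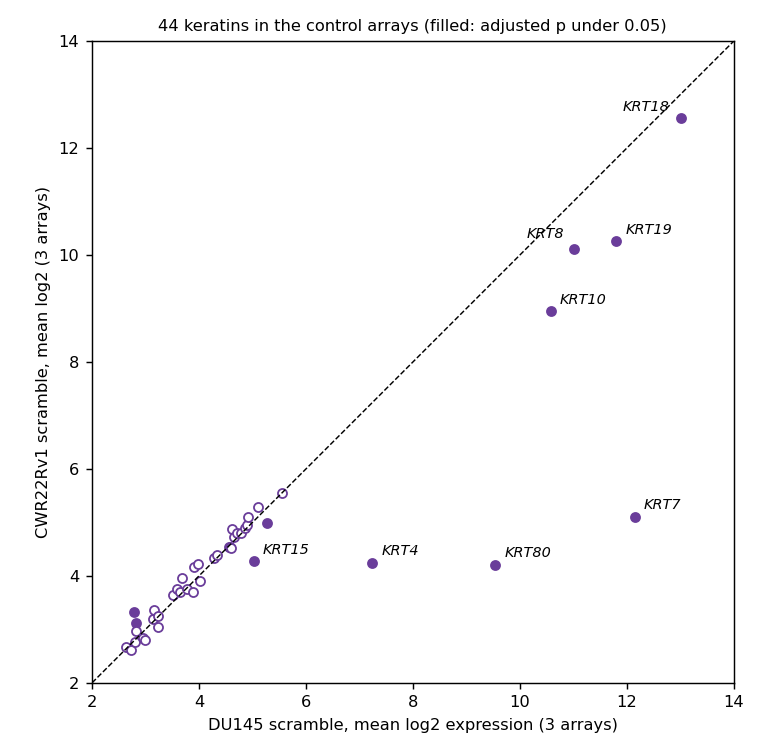
Mean log2 expression of 44 keratins in the 3 scramble arrays of DU145 (x axis) and of CWR22Rv1 (y axis), with the line of equal values dashed and called keratins filled. KRT7, KRT80 and KRT4 lie far below the line, KRT8, KRT10, KRT18 and KRT19 closer to it, and most others cluster near it below 6.

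KRT4 had the largest siRNA effect of any keratin, and it fell with both siRNAs in DU145. From 7.75, 7.55 and 6.42 in scramble it went to 6.11, 5.33 and 4.97 with Stat3 siRNA and to 5.04, 5.29 and 4.43 with Stat5a/b siRNA. All 6 siRNA arrays lay below all 3 scramble arrays, and the third replicate was the lowest in each of the DU145 groups. The difference from scramble was -1.77 ± 0.308 with Stat3 siRNA (adjusted p = 7.8e-04), which leaves 29.4% of the control value. Stat5a/b siRNA gave -2.32 ± 0.308 (adjusted p = 4.5e-05) and left 20.1%. Leaving out any array of these groups gave values from -2.18 to -1.51 and from -2.73 to -2.06, all called. Taken by replicate number, the differences were -1.63, -2.22 and -1.45 with Stat3 siRNA and -2.70, -2.26 and -1.99 with Stat5a/b siRNA. The siRNA groups themselves differed by -0.55 (95% interval -1.20 to 0.10, adjusted p = 0.232), so a difference between them was not shown.

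In CWR22Rv1, KRT4 was low throughout: 4.38, 4.13 and 4.24 with scramble, 4.18, 4.49 and 4.35 with Stat3 siRNA, 4.50, 4.64 and 4.63 with Stat5a/b siRNA. The differences, 0.094 and 0.34, were not called. At this level, which may already lie at background, a fall of the DU145 size might not be measurable, and one as large as with Stat5a/b siRNA would end below 2.38, the lowest keratin value on any array. The tests between the lines are limited by that starting level. The effect of Stat5a/b siRNA differed between the lines by 2.66 ± 0.436 (CWR22Rv1 minus DU145, adjusted p = 0.00104). That of Stat3 siRNA differed by 1.86 ± 0.436 (adjusted p = 0.0297), a call that was lost when any of 10 of the 12 arrays was left out. Its adjusted p then ran from 0.0550 to 0.0741 and its value from 1.61 to 1.94, the exceptions being scramble replicate 3 and Stat3 siRNA replicate 1 of DU145. KRT4 has a dimmer probe set too, with group means between 4.48 and 4.66. It gave 0.075 and -0.10 in DU145, neither called, so the fall was read from the brighter set alone.

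KRT4 sits in the type II keratin cluster of chromosome 12, with KRT3 and KRT79 as its neighbours in RefSeq order and KRT8 close by. The promoters of KRT4, of the neighbour KRT79, low in both lines, and of KRT8, bright in both lines, are shown to set the member that moved beside nearby type II genes that were not called with either siRNA. Each is 250 bases before to 50 bases after the start, RefSeq GRCh38.p14, minus strand, written 5' to 3', with the letters TATAA in capitals. They lie at chr12:52814067-52814366, chr12:52834262-52834561 and chr12:52926420-52926719.
KRT4: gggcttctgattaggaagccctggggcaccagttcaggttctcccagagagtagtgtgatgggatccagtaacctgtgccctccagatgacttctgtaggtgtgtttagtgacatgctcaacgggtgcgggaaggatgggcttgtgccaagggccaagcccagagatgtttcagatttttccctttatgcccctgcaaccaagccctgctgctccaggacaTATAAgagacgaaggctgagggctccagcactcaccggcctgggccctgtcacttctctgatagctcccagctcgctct
KRT79: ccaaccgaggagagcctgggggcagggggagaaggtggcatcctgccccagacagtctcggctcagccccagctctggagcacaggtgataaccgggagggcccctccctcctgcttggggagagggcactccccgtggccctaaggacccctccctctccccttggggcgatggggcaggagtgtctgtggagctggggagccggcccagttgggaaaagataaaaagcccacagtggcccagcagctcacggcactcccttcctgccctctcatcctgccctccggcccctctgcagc
KRT8: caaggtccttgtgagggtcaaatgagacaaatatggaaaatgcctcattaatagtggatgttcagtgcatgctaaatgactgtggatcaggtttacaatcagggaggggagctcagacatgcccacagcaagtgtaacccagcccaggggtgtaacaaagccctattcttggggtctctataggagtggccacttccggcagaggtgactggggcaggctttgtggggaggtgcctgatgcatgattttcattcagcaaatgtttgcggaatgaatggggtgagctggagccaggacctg
TATAA begins 29 bases before the KRT4 start, on the strand shown, and the other windows hold none on either strand. TTCNNNGAA, the spaced palindrome known as the core of sites that STAT dimers bind, is in 0 of these 3 windows on either strand, which says only that the letters are not in these 300 bases. Searched on both strands, neither motif being part of the other, TTCNNNGAA is in 7.66% and TATAA in 20.4% of 35116 promoter windows of that length. Of 33 keratin windows, from 29 of the genes measured, 2 hold TTCNNNGAA (KRT24 and KRT38) and 23 hold TATAA. KRT24 and KRT38 stayed below 6 on every array and were never called.

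KRT79 differed from scramble in DU145 by -0.024 and 0.037 and KRT3 by 0.052 and -0.26, none of them called. Both neighbours of KRT4 read below 6 in every group, at 4.97 to 5.43 for KRT79 and 4.20 to 5.02 for KRT3.

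**Figure D2:**
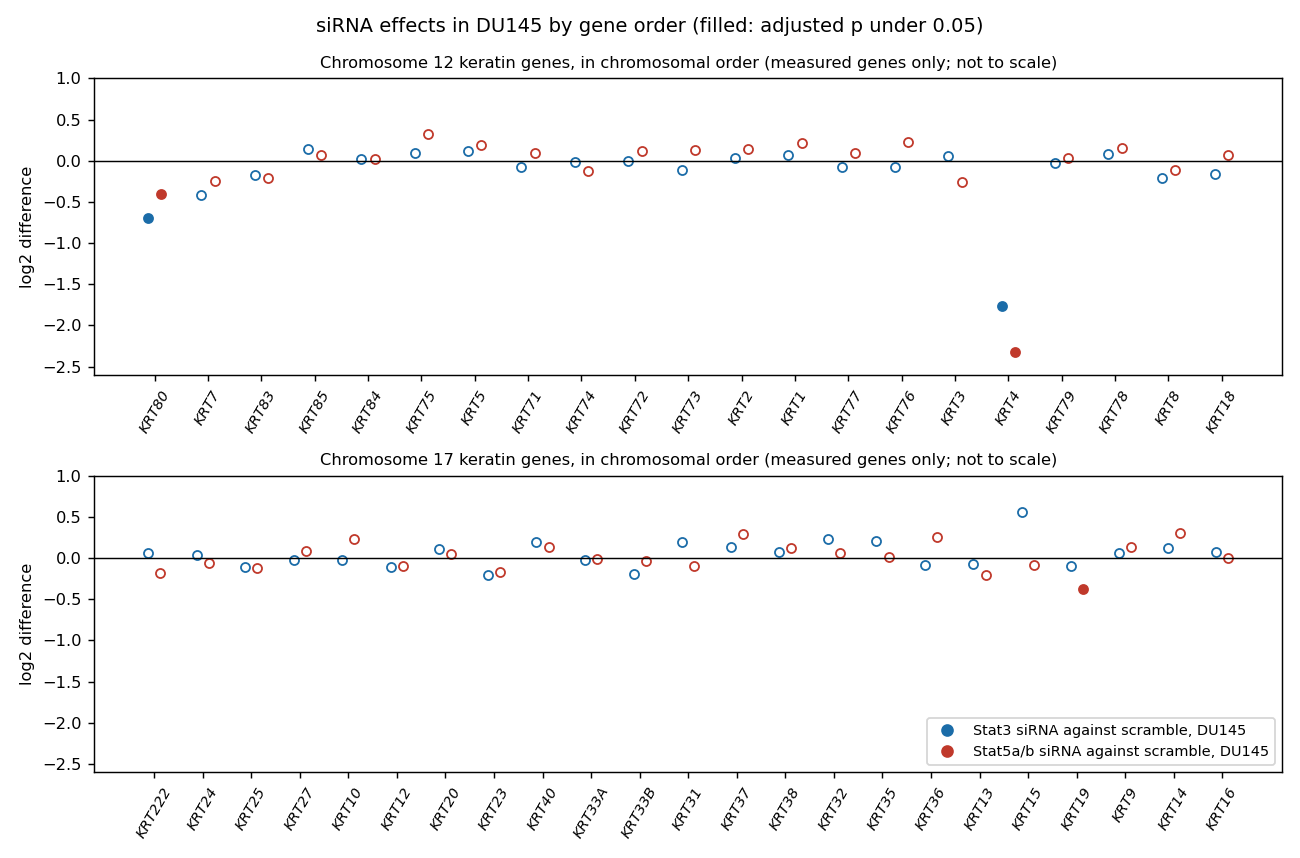
Log2 difference from scramble in DU145 (y axis) for measured keratins in chromosomal order (x axis, not to scale), blue for Stat3 and red for Stat5a/b siRNA, filled where called. KRT4 (-1.77 and -2.32) stands below its neighbours on chromosome 12, KRT80 (-0.70 and -0.40) is filled at the other end of that cluster, and KRT19 (-0.37) is the filled point on chromosome 17.

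KRT80 fell with both siRNAs in DU145 as well, by less. Its DU145 arrays read 9.29, 9.74 and 9.58 with scramble, 8.69, 8.79 and 9.03 with Stat3 siRNA and 9.17, 9.20 and 9.03 with Stat5a/b siRNA, and neither siRNA group overlapped the control. Stat3 siRNA gave -0.70 ± 0.124 (adjusted p = 9.2e-04), 61.6% of the control. Stat5a/b siRNA gave -0.40 ± 0.124 (adjusted p = 0.0254), 75.5% of the control. The second of these calls rests on single arrays: it was lost without scramble replicate 2 (-0.30, adjusted p = 0.121), scramble replicate 3 (-0.38, adjusted p = 0.0639) or Stat5a/b replicate 3 (-0.35, adjusted p = 0.0805). In CWR22Rv1, where KRT80 read 4.02 to 4.59 and may lie at background too, so that a fall might not be seen, the differences were 0.28 and -0.057 and not called. The Stat3 siRNA effect differed between the lines by 0.98 ± 0.176 (adjusted p = 0.00815), and that of Stat5a/b siRNA by 0.35 (adjusted p = 0.231).

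**Figure D3:**
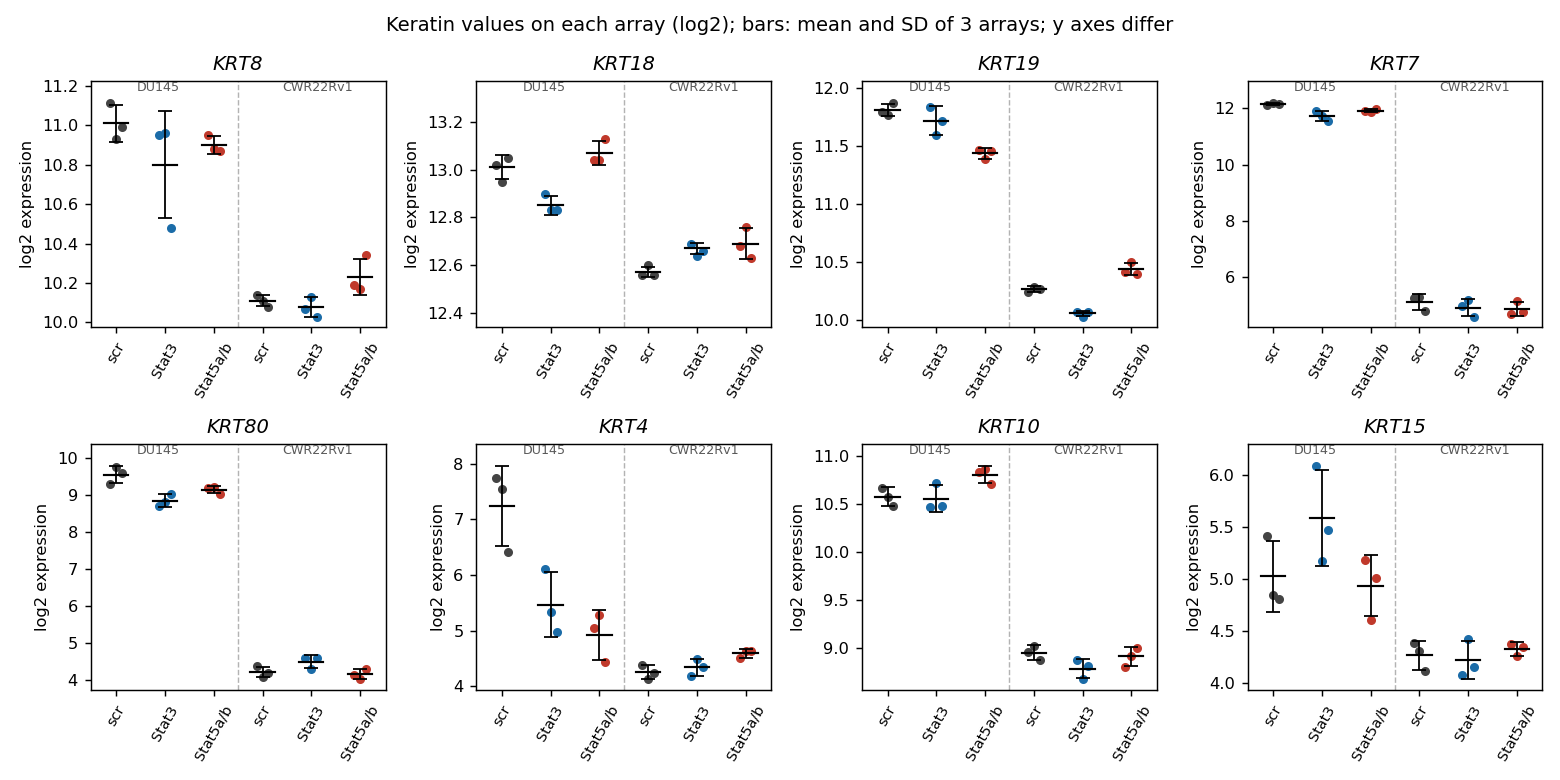
Log2 expression (y axis, scaled per gene) of 8 keratins on each of 18 arrays by group (x axis), with the mean and SD of 3 arrays in black. KRT4 and KRT80 drop from scramble in DU145 and stay near 4 in CWR22Rv1, and KRT19 moves down in DU145 and up in CWR22Rv1 with Stat5a/b siRNA.

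Among the keratins of simple epithelia, KRT19 was the member called against scramble. KRT19 is a type I keratin of ductal and glandular cells. In DU145 it read 11.80, 11.77 and 11.87 with scramble, 11.84, 11.60 and 11.72 with Stat3 siRNA and 11.47, 11.39 and 11.46 with Stat5a/b siRNA, so that the Stat5a/b arrays lay below every other DU145 array. The difference with Stat5a/b siRNA was -0.37 ± 0.0624 (adjusted p = 3.7e-04), 77.2% of the control, and -0.39 to -0.34 with any array left out. Averaged with its dim second probe set, whose group means were 4.13 to 4.38, it was -0.21 (adjusted p = 0.0518). With Stat3 siRNA KRT19 differed by -0.093 (adjusted p = 0.376).

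CWR22Rv1 showed another order for KRT19: 10.24, 10.29 and 10.27 with scramble, 10.07, 10.03 and 10.07 with Stat3 siRNA, 10.42, 10.50 and 10.40 with Stat5a/b siRNA. These groups did not overlap, but the differences from scramble, -0.21 (adjusted p = 0.0652) and 0.17 (adjusted p = 0.137), were not called in the main fit. The difference with Stat3 siRNA was called in some alternatives: the line fitted alone, genes with a mean of at least 6, trended robust eBayes and a replicate block. Set against each other, Stat5a/b siRNA was above Stat3 siRNA by 0.38 ± 0.0624 in CWR22Rv1 (adjusted p = 7.2e-04) and below it in DU145 (-0.28 ± 0.0624, adjusted p = 0.00386). The Stat5a/b effect differed between the lines by 0.54 ± 0.0882 (adjusted p = 9.8e-04).

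KRT18, the type I partner of KRT8 and the brightest keratin on these arrays, moved by little. Its DU145 values were 13.02, 12.95 and 13.05 with scramble, 12.90, 12.83 and 12.83 with Stat3 siRNA and 13.04, 13.04 and 13.13 with Stat5a/b siRNA. Stat3 siRNA arrays lay below both other groups. The difference from scramble was -0.16 ± 0.0535 (adjusted p = 0.0613) and was not called, while Stat5a/b siRNA was above Stat3 siRNA by 0.22 ± 0.0535 (adjusted p = 0.00693). In CWR22Rv1 the arrays read 12.56, 12.60 and 12.56, then 12.69, 12.64 and 12.66 with Stat3 siRNA and 12.68, 12.76 and 12.63 with Stat5a/b siRNA, differences of 0.091 and 0.11 that were not called.

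KRT8, its type II partner, was not called against scramble in either line. DU145 read 11.11, 10.93 and 10.99 with scramble and 10.95, 10.96 and 10.48 with Stat3 siRNA, where replicate 3 stood apart, a difference of -0.21 (95% interval -0.43 to -0.0025, adjusted p = 0.177). Stat5a/b siRNA gave 10.95, 10.88 and 10.87, a difference of -0.11 (adjusted p = 0.453). In CWR22Rv1 KRT8 lay between 10.03 and 10.34 on all 9 arrays, with differences of -0.035 and 0.12. In bulk RNA, fewer cells making a keratin and less keratin RNA per cell cannot be told apart, here and for every other member.

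KRT7 in DU145 read 12.13, 12.17 and 12.15 with scramble, 11.90, 11.74 and 11.56 with Stat3 siRNA and 11.91, 11.86 and 11.96 with Stat5a/b siRNA. Every siRNA array lay below every scramble array, by an amount that did not pass the test: -0.42 ± 0.155 with Stat3 siRNA (adjusted p = 0.0845) and -0.24 ± 0.155 with Stat5a/b siRNA (adjusted p = 0.302). With the DU145 arrays fitted alone, -0.42 with Stat3 siRNA had an SE of 0.0931 and an adjusted p of 0.0222, with the mean of its probe sets it was -0.28 (adjusted p = 0.0174), and a replicate block took the adjusted p to 0.0144. The dimmer probe sets of KRT7 gave -0.18, -0.049 and -0.46 with Stat3 siRNA and 0.036, -0.35 and 0.11 with Stat5a/b siRNA. None of these was called with limma p-values adjusted over all probe sets. The last set was called higher with Stat5a/b than with Stat3 siRNA (0.57, adjusted p = 0.0207). The other sets, the brightest among them, lay between -0.30 and 0.22 in that contrast and were not called. KRT20, the remaining simple keratin, was low in both lines and not called.

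**Figure D4:**
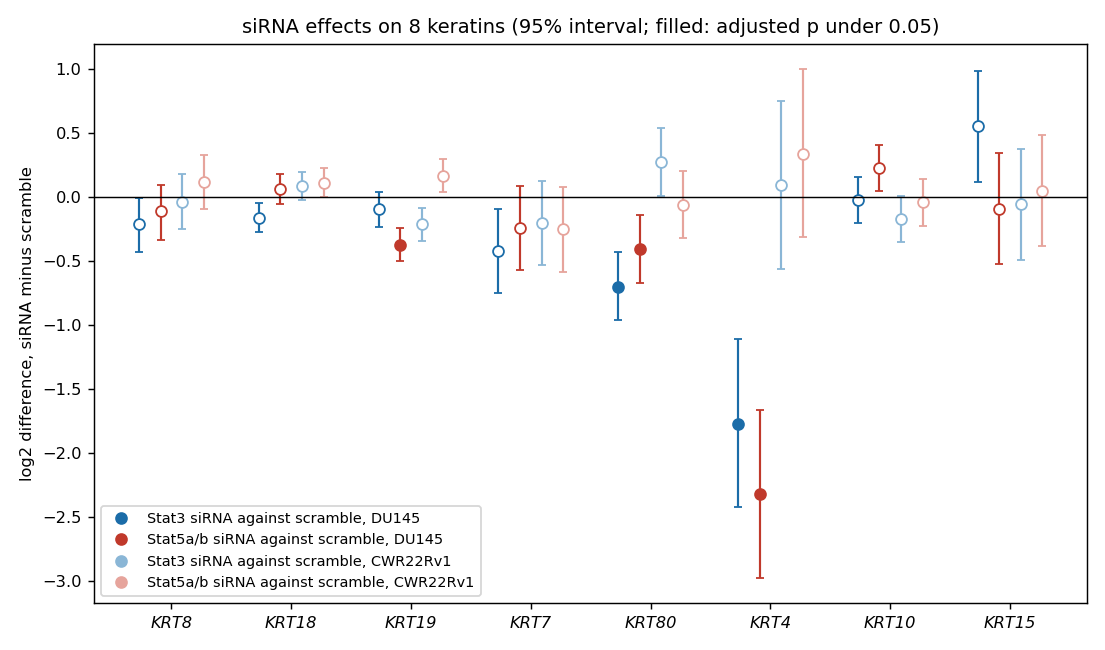
Log2 difference between siRNA and scramble (y axis) with its 95% interval for 8 keratins (x axis) in 4 comparisons, filled where called. The 5 filled points, KRT4 and KRT80 with both siRNAs and KRT19 with Stat5a/b siRNA, are all DU145 and below 0, and the CWR22Rv1 points lie between -0.25 and 0.34.

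KRT10, the type I keratin of the differentiating epidermis, was bright in DU145 at 10.67, 10.58 and 10.48 with scramble, 10.47, 10.72 and 10.48 with Stat3 siRNA and 10.84, 10.87 and 10.71 with Stat5a/b siRNA. Stat5a/b siRNA arrays were above the scramble arrays by 0.23 (adjusted p = 0.0590, not called) and above the Stat3 siRNA arrays by 0.25 ± 0.0847 (adjusted p = 0.0419), with overlap at 10.71 and 10.72. That call was lost without Stat3 replicate 1 or 3 or Stat5a/b replicate 1 or 2 (0.21 to 0.23, adjusted p = 0.116 to 0.144). KRT10 has 2 other bright probe sets, with DU145 group means of 10.36 to 10.48 and 9.97 to 10.21. They gave 0.060 and 0.014 against scramble and 0.12 and 0.23 against Stat3 siRNA, none called when the p-values were adjusted over all probe sets (adjusted p = 0.0994 to 0.946), an adjustment under which the brightest set was not called either (0.0696 against Stat3 siRNA). The size of the KRT10 difference from scramble thus varied by probe set. Against Stat3 siRNA every set read higher with Stat5a/b siRNA, and differences between sets were not tested. CWR22Rv1 arrays lay between 8.67 and 9.02, with differences of -0.17 and -0.039. The type II partner of KRT10, KRT1, stayed between 3.49 and 4.16 on all arrays, and KRT13, the usual partner of KRT4, between 2.53 and 3.27.

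The basal keratins were low. KRT15, a type I keratin of basal and stem-like cells, read 5.42, 4.85 and 4.81 in DU145 scramble, 6.09, 5.18 and 5.48 with Stat3 siRNA and 5.19, 4.61 and 5.01 with Stat5a/b siRNA. The groups overlapped. Stat3 siRNA gave 0.56 ± 0.205 (adjusted p = 0.0805, not called, but 0.00556 and called with the replicate block), Stat5a/b siRNA -0.087, and the direct contrast of Stat5a/b with Stat3 siRNA -0.65 ± 0.205 (adjusted p = 0.0328). Without Stat3 replicate 1 that contrast was -0.39 (adjusted p = 0.173), and without Stat5a/b replicate 2 or 3 it was -0.48 and -0.68 (adjusted p = 0.148 and 0.0518). KRT5 and KRT14, the pair of basal cells, lay between 4.38 and 5.21 and between 2.65 and 3.35 and were not called in any siRNA comparison, with differences from scramble of -0.051 to 0.19 and of 0.046 to 0.30.

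The remaining family members were low. The 12 hair keratins, made in the hair shaft, ran from 2.38 to 5.58, and the 6 inner root sheath keratins from 2.65 to 5.33. Of the 13 keratins of stratified differentiation, 11 stayed below 6 throughout, the exceptions being KRT4 and KRT10. Over the 36 keratins below 6 on every array, values ran from 2.38 to 5.82, the median range over 18 arrays was 0.64 and KRT73 had the widest, 3.83 to 5.33. Their differences from scramble ran from -0.27 to 0.35 in the 4 comparisons, with 0 calls by limma. With the replicate block, which applies to Stat3 siRNA in DU145, the hair keratin KRT32 was called higher there (0.23 ± 0.0699, adjusted p = 0.0447).

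Counted over the family, 2 keratins were called in DU145 with Stat3 siRNA, both lower, against 15.8% of all genes called and 8.25% called lower. With Stat5a/b siRNA 3 were called, all lower, against 24.3% and 12.5%. In CWR22Rv1 limma called 0 with either siRNA, against 4.77% and 6.46% of all genes, with 5 and 2 keratins at an unadjusted p under 0.05, where 16.9% and 17.5% of all genes were. Stat5a/b against Stat3 siRNA gave 4 calls in DU145 (22.1% of all genes), 2 in each direction (11.0% higher, 11.2% lower), and 1, higher, in CWR22Rv1 (10.8%, of which 4.70% higher). Differences of the effect between the lines were called for 2 keratins with Stat3 siRNA (3.00% of all genes, 1.82% more positive in CWR22Rv1) and for 2 with Stat5a/b siRNA (11.9%, 6.75% more positive), all more positive in CWR22Rv1. Arrays did not overlap with scramble for 5 and 8 keratins in DU145 and for 6 and 6 in CWR22Rv1, where 26.2%, 34.4%, 32.3% and 31.1% of all genes were so placed. The shares of keratins called, 4.55% and 6.82% in DU145, were below those of all genes. No keratin of the 36 that stayed below 6 was among them. The median keratin difference was -0.013 and 0.045 in DU145 and -0.044 and 0.045 in CWR22Rv1, where all genes had 0.0056, 0.011, -0.0042 and 0.024. Replicate numbers counted as pairing for Stat3 siRNA in DU145. With that block 5 keratins (11.4%) were called, against 18.4% of all genes, 8.73% higher and 9.64% lower. KRT4, KRT7 and KRT80 were lower and KRT15 and KRT32 higher, so the keratin share stayed below that of all genes.

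The genes that anchor keratin filaments were counted from lists chosen with earlier results of these data known. Of 13 desmosome genes, Stat3 siRNA lowered 2 in DU145 and raised 0: DSC2, a desmosomal cadherin (-0.34 ± 0.0814, adjusted p = 0.00839), and PKP3, a plaque protein (-0.26, adjusted p = 0.0216). That is 15.4% of the list, close to the 15.8% of all genes called. Stat5a/b siRNA lowered 3, PKP3 (-0.45), DSC2 (-0.45) and JUP (-0.52), which encodes plakoglobin, and raised DSP (0.19), the desmoplakin that binds keratins, 30.8% of the list against 24.3% of all genes. DSC2 was the desmosome gene called in CWR22Rv1, lower with Stat3 siRNA (-0.31, adjusted p = 0.0399) and with Stat5a/b siRNA (-0.44, adjusted p = 0.00295). This 1 gene is 7.69% of the list with each siRNA, where 4.77% and 6.46% of all genes were called. The median of the list was -0.071 and -0.0023 in DU145.

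Plakins and hemidesmosome genes, which tie keratins to the basal membrane and to other filaments, were mostly lower with Stat5a/b siRNA in DU145. That siRNA gave calls for 8 of 9, 1 higher and 7 lower, against 24.3% of all genes called, 11.8% higher and 12.5% lower. Stat3 siRNA gave 2 of 9, 1 in each direction, against 7.51% higher and 8.25% lower. With the replicate block it gave 3 of 9, 1 higher and 2 lower, against 8.73% and 9.64% of all genes. EVPL (-0.23, adjusted p = 0.0206) was the gene added. PPL, encoding periplakin, read 9.64, 9.55 and 9.38 with scramble, 8.99, 9.03 and 8.32 with Stat3 siRNA and 8.24, 8.06 and 7.99 with Stat5a/b siRNA. The 3 groups did not overlap, and the differences were -0.74 ± 0.165 (adjusted p = 0.00515) and -1.42 ± 0.165 (adjusted p = 1.2e-05). MACF1, a plakin that links microtubules to actin, was higher with Stat3 siRNA (0.27, adjusted p = 0.0187) and lower with Stat5a/b siRNA (-0.44, adjusted p = 4.3e-04). CD151 (-0.30), a tetraspanin of hemidesmosomes, and DST (-0.23), encoding the dystonin that anchors keratins there, fell with Stat5a/b siRNA. The count of 8 fell to 4 with the DU145 arrays fitted alone. It was 5 without scramble replicate 1 or any of the Stat5a/b replicates, and 6 without scramble replicate 2 or 3. PPL, MACF1 and CD151 were called in each of these.

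In CWR22Rv1 limma called 0 of the 9 plakin and hemidesmosome genes with either siRNA, against 4.77% and 6.46% of all genes. At an unadjusted p under 0.05 there were 1 and 5, against 16.9% and 17.5% of all genes. PPL differed there by 0.38 and 0.50, and its effect differed between the lines by 1.13 (adjusted p = 0.0162) and 1.92 (adjusted p = 9.8e-05). With Stat5a/b siRNA 5 of the 9 effects differed between the lines, all more positive in CWR22Rv1, against 11.9% of all genes called and 6.75% more positive. The mean level of the list was lower in CWR22Rv1 scramble (6.79 to 6.83) than in DU145 (8.64 to 8.73).

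**Figure D5:**
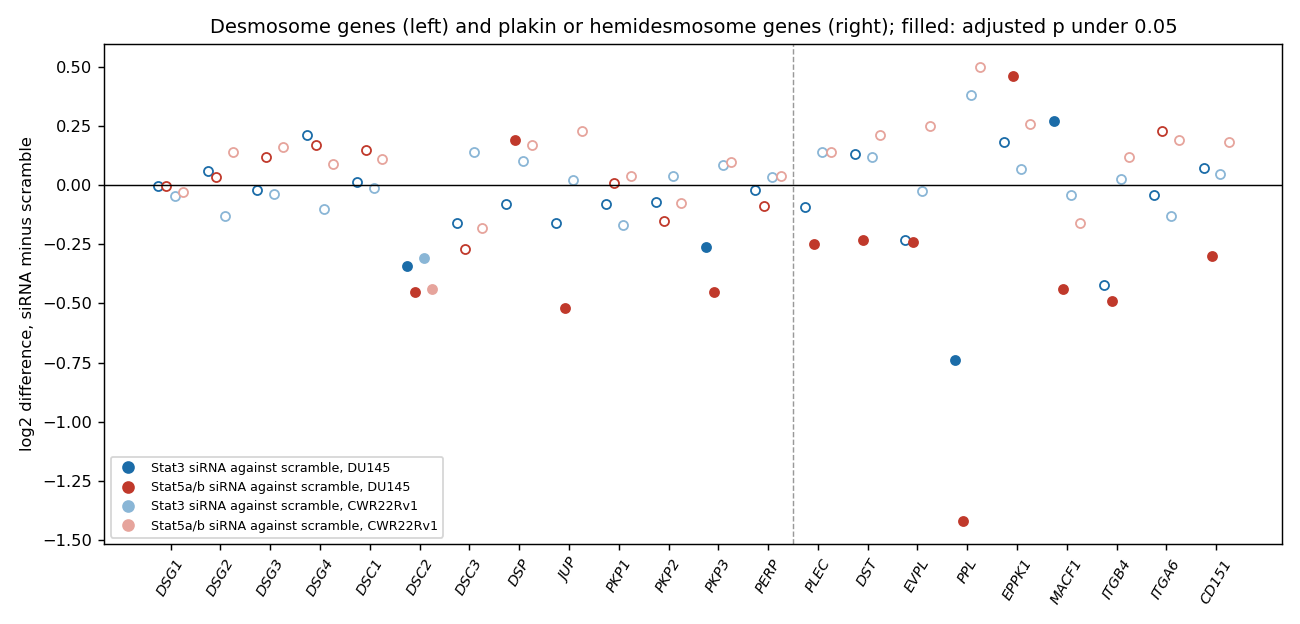
Log2 difference between siRNA and scramble (y axis) for 13 desmosome genes (left of the dashed line) and 9 plakin or hemidesmosome genes (right), in 4 comparisons, filled where called. In DU145 PPL is lowest (-0.74 and -1.42), and most plakin points of Stat5a/b siRNA lie below 0, while DSC2 is filled in all 4 comparisons.

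Among the 16 other intermediate filament genes, LMNB1, a nuclear lamin, was higher with Stat3 siRNA in DU145 (0.87, adjusted p = 7.2e-06) and in CWR22Rv1 (0.57, adjusted p = 0.00199). LMNB2 was lower with Stat5a/b siRNA in both lines (-0.48 and -0.46). LMNA was lower in DU145 with each siRNA (-0.30 and -0.41), VIM was higher with Stat3 siRNA (0.22, adjusted p = 0.0406), and NEFL, a neurofilament, was lower (-1.05). NES (-0.60) was lower and INA (0.93) higher with Stat5a/b siRNA in DU145. In all, Stat3 siRNA gave 2 higher and 2 lower in DU145 and 2 higher in CWR22Rv1, and Stat5a/b siRNA 2 higher and 3 lower in DU145 and 1 in each direction in CWR22Rv1. These are 25.0% and 31.2% of the list in DU145, where 15.8% and 24.3% of all genes were called, and 12.5% with each siRNA in CWR22Rv1, where 4.77% and 6.46% were.

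Of 13 cornified envelope genes, which toughen the outermost epidermal cells, DU145 gave 1 call with Stat3 siRNA, TCHH (0.72), and 2 with Stat5a/b siRNA, SCEL (-1.17) and IVL (-0.46). These shares, 7.69% and 15.4%, were below the 15.8% and 24.3% of all genes. With the replicate block Stat3 siRNA gave 2 calls, TGM1 (-0.30) being the second, which is 15.4% against 18.4% of all genes. CWR22Rv1 gave 0 calls with limma, and 0 at an unadjusted p under 0.05, with either siRNA. Of 15 epithelial transcription factors, Stat3 siRNA gave 2 higher and 3 lower in DU145 and Stat5a/b siRNA 2 in each direction, 33.3% and 26.7% of the list against 15.8% and 24.3% of all genes. In CWR22Rv1 it was 2 and 1, all higher (13.3% and 6.67%, against 4.77% and 6.46%). SOX9 rose in DU145 with both siRNAs (1.45 and 0.63) and ELF3 fell with both (-0.61 and -0.71). KLF4, a factor of barrier differentiation, rose in both lines with Stat5a/b siRNA, in DU145 by 1.08 (adjusted p = 3.2e-08) and in CWR22Rv1 by 0.66 (adjusted p = 2.6e-05), and TFAP2A fell in DU145 (-0.53). With Stat3 siRNA TFAP2C (-0.35) and NR3C1 (-0.29) fell in DU145 and GRHL2 rose (0.53), a call lost with the replicate block (adjusted p = 0.0569), and in CWR22Rv1 GRHL1 (0.49) and KLF4 (0.30) rose. That block added KLF5 (-0.26) and TFAP2A (-0.20) with Stat3 siRNA in DU145. It thus gave 1 higher and 5 lower, 40.0% of the list, against 18.4% of all genes, 8.73% higher and 9.64% lower.

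Epithelial markers fell in DU145, as KRT4 and KRT80 did. EPCAM, CDH1 and CLDN7, 3 of 4 in that list, fell with Stat3 siRNA (-0.49, -0.98 and -0.41) and with Stat5a/b siRNA (-0.40, -1.18 and -0.48), where 8.25% and 12.5% of all genes were called lower. The mean level of the 4 was 9.04 to 9.19 with scramble, 8.57 to 8.73 with Stat3 siRNA and 8.49 to 8.62 with Stat5a/b siRNA. In CWR22Rv1 it was 10.90 with scramble on each array, 10.93 to 10.98 with Stat3 siRNA and 10.98 to 11.05 with Stat5a/b siRNA. The mesenchymal list of 6, with VIM and collagens, had a mean of 5.94 to 6.03, 5.69 to 5.78 and 5.86 to 5.97 in the 3 DU145 groups. With Stat3 siRNA in DU145 it gave 1 call in each direction, COL1A1 lower (-1.24) and VIM higher (0.22), against 8.25% of all genes lower and 7.51% higher. Stat5a/b siRNA gave 1 call there, COL1A1 lower, against 12.5% of all genes lower. In CWR22Rv1 Stat3 siRNA gave 2 calls, COL3A1 and LUM lower, and Stat5a/b siRNA 1, COL1A1 higher. Those are 33.3% and 16.7% of the mesenchymal list, against 4.77% and 6.46% of all genes. In the 3 DU145 groups the leukocyte list of 3 was at 4.50 to 4.68, 4.13 to 4.33 and 4.11 to 4.50. CD14 was lower (-1.09 and -0.96), and the endothelial list of 3 lay between 4.52 and 4.85 in DU145. Their part in the keratin differences was not tested.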

How the data were processed

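The study has 18 arrays (Affymetrix U133 Plus 2.0), 3 in each of 6 groups. The deposited values are log2 expression per probe set, which the authors made with RMA (background correction, quantile normalization and probe summary), and RMA and limma are named without versions per the submitters' processing notes. Array medians ran from 5.16 to 5.20 and no further scaling was applied. Precision is limited by the 3 arrays a group: over genes, the standard error of a difference had quartiles of 0.0762 and 0.126.

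Of 54675 probe sets, 41091 carry 1 gene symbol in the platform annotation, and 19775 genes were each read from the set with the highest mean. With limma 3.58.1 (R 4.3.3), lmFit and eBayes fitted 6 group means to the 18 arrays, with 12 residual and 3.82 prior degrees of freedom. P-values are two-sided, adjusted by Benjamini and Hochberg's method across the 19775 genes of each comparison, and called under 0.05. Values written a ± b are a log2 difference and its standard error from that fit, which pools the spread of all groups and both lines. The procedure was tested on simulated data.

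The members, gene lists and tests were chosen with earlier results of these data known. Named were keratins called in any of the 9 comparisons, the simple and basal keratins KRT5, KRT7, KRT8, KRT14, KRT15, KRT18 and KRT19 (KRT17, also in that rule, has no probe set here), and up to 4 called genes per partner list and siRNA comparison by smallest adjusted p. KRT1, KRT3, KRT13, KRT20, KRT24, KRT32, KRT38, KRT73 and KRT79 were named outside that rule, as partners, neighbours or extremes, after their values were seen. Deviations of same-numbered arrays from their group means correlated at 0.20, 0.16 and 0.33 for Stat3 siRNA and scramble in DU145, so replicate numbers count as pairing in that comparison, from the data and not the labels. They did not reach 0.1 for every number in the other comparisons. Alternatives were quantile normalization, a mean of at least 6, the mean of a gene's probe sets, trended robust eBayes, a replicate block, each line fitted alone and each array left out.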

Additional observations from a re-analysis of the deposited data

Results flagged for a closer look

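A test of the difference between the lines (siRNA effect in CWR22Rv1 minus that in DU145, limma) marked 4 keratin results. The Stat3 siRNA effect differed for KRT4 by 1.86 (adjusted p = 0.0297), with 10 of 12 left-out arrays ending the call, and for KRT80 by 0.98 (adjusted p = 0.00815). The Stat5a/b siRNA effect differed for KRT4 by 2.66 (adjusted p = 0.00104) and for KRT19 by 0.54 (adjusted p = 9.8e-04). In CWR22Rv1 scramble arrays KRT4 read 4.13 to 4.38, KRT80 4.08 to 4.36 and KRT19 10.24 to 10.29. The levels of KRT4 and KRT80 there may already lie at background, so a fall like that in DU145 might not be measurable, and these 3 differences do not show that the siRNAs acted otherwise in CWR22Rv1.

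For KRT18 with Stat3 siRNA every array moved below scramble in DU145 (-0.16) and above it in CWR22Rv1 (0.091). The difference between the lines was 0.25 ± 0.0757 (adjusted p = 0.0933), which did not pass the test. Groups of 3 arrays were not examined for outlying samples.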

How the results depend on the processing

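Among 25 called keratin results, 299 values under alternatives were computed: 260 kept direction and call, 39 lost the call and 0 reversed. With the replicate block the counts of called keratins were 5 (Stat3 siRNA, DU145), 6 (Stat5a/b, DU145), 2 (Stat3, CWR22Rv1) and 2 (Stat5a/b against Stat3, CWR22Rv1), against 2, 3, 0 and 1. In the last 3 of these, same-numbered deviations did not reach a correlation of 0.1 for every number, so replicate numbers were not counted as pairing. For Stat5a/b siRNA and scramble in DU145 the correlations were 0.064, 0.12 and 0.17, so the check does not show that pairing is absent there. Beyond these 4 comparisons the block moved no count of keratins by over 1.5 times. Restricted to genes with a mean of at least 6, which leaves 6 keratins and not KRT4, the counts were 1 (Stat3, CWR22Rv1), 1 (difference of the Stat5a/b effect) and 6 (lines). The mean of a gene's probe sets gave 2 (Stat5a/b against Stat3, DU145) and 1 (difference of the Stat3 effect). Trended robust eBayes gave 1 and 1 for Stat3 and Stat5a/b siRNA in CWR22Rv1. Each line fitted alone gave 1 and 2 there, 0 for Stat5a/b against Stat3 siRNA in DU145 and 2 in CWR22Rv1. The calls with Stat3 siRNA in CWR22Rv1 included KRT19 under each of these settings (adjusted p = 0.0110 to 0.0452). With single arrays left out, counts ran from 2 to 3 (Stat3, DU145), 3 to 4 (Stat5a/b, DU145), 0 to 0 (each siRNA, CWR22Rv1), 2 to 5 and 1 to 1 (Stat5a/b against Stat3, DU145 and CWR22Rv1), 1 to 2 and 2 to 2 (difference of the Stat3 and Stat5a/b effects) and 9 to 11 (lines). The plakin count, added after seeing the data, ran from 5 to 6 there and was 4 with the line fitted alone. With the block 18.4% of all genes were called for Stat3 siRNA in DU145, against 15.8% without it. Shares of all genes under the other alternatives are not given here. Without those shares, the other changed counts of called keratins cannot be read as particular to the family or not. The causes were not tested. Values near the lower end of the range, where most keratins lie, limit what can be seen.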
